A study of Mus musculus with 8 samples.

Results

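The genes described here work in the endoplasmic reticulum (ER), where they fold secreted and membrane proteins, attach sugars to them and dispose of those that fail to fold. They were chosen by name as a list of 38 mouse genes, and 38 of the 38 were found by gene symbol among the 38115 genes counted. RNA was sequenced from 8 tumors grown from Myc-CaP cells, a prostate tumor line derived from a mouse with a prostate-directed Myc transgene. Cells of the androgen sensitive line (AS) or the castrate resistant line (CR) were placed in the anterior lobes of the prostate of FVB males that were intact or had been castrated surgically beforehand. The groups were 2 primary AS tumors, 2 primary CR tumors, 2 metastatic AS tumors and 2 metastatic CR tumors, which gives 4 against 4 both by tumor type and by phenotype. The labels do not give the hormonal state of the host for each tumor or the site of each metastasis, and each phenotype is a single cell line, so phenotype, line and castration of the host cannot be told apart. The labels call each metastasis matched but do not say to which primary tumor. The numbers in tumor names such as primary AS1 were given here by sample order and mark no known pair. A metastasis and its matched primary tumor may come from the same animal. The 4 tumors of a phenotype may therefore not be independent, and n counts tumors, not animals. Nothing states that the tumors of a group came from separate animals, so p-values measure the spread between these tumors only.

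Proteins enter the ER as unfolded chains. The oligosaccharyltransferase attaches a sugar tree to asparagines, the chaperones BiP (Hspa5) and Grp94 (Hsp90b1) hold the chain, and calnexin and calreticulin bind it through its trimmed sugars while disulfide isomerases form its disulfide bonds. Chains that stay unfolded are trimmed by mannosidases, exported and degraded. When unfolded proteins accumulate, the sensors Ire1 (Ern1), Perk (Eif2ak3) and Atf6 start the unfolded protein response: Ire1 splices the messenger RNA of the factor Xbp1, and Xbp1 and Atf6 switch on chaperone and degradation genes through short promoter elements. Secretory prostate epithelium relies on this machinery. Total gene counts do not show splicing of Xbp1, cleavage of Atf6 or phosphorylation of Perk.

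The promoters of the list were searched for short elements of the unfolded protein response. These elements are known from genes of this kind, so their share in the list is not independent of its choice. RefSeq promoters, from 250 bases before to 50 after the gene start on GRCm38.p6, were held for 34 of the 38 genes. Both strands were searched for the ER stress element, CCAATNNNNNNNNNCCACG, for the second element, ATTGG and CCACG with 1 base of any kind between them, and for the Xbp1 element, TGACGTGG. All 3 share the letters CCACG or their reverse complement, so matches can overlap. The ER stress element stood without a mismatch in 9 of 34 promoters of the list (26.5%) and in 37 of the 27025 genes with a promoter (0.137%). The second element stood in 1 of the 34, Herpud1 (2.94%), and in 12 of all genes (0.0444%), while the Xbp1 element stood in 0 of the 34 and in 193 of all genes (0.714%). With 1 mismatch allowed, the ER stress element was found in 15 of the 34 (44.1%) and in 1.72% of all genes. The second element was then found in 8 of the 34 (23.5%) and in 1.31% of all genes. The Xbp1 element was found in 9 of the 34 (26.5%) and in 18.1% of all genes. The windows below are shown because each holds an exact element, in capitals and read along the strand of the gene, except that of Sdf2l1.
Hspa5, chr2:34772020-34772048, plus strand: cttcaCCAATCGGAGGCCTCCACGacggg
Hsp90b1, chr10:86705618-86705676, minus strand: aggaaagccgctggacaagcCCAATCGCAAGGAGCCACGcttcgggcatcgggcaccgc
Hsp90b1, chr10:86705513-86705571, minus strand, element reversed: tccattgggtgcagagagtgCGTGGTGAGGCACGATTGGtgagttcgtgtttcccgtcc
Dnajc3, chr14:118937807-118937865, plus strand: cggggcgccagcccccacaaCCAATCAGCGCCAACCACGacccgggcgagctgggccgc
Creld2, chr15:88819500-88819558, plus strand, element reversed: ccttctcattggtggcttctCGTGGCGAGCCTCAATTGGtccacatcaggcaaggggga
Calr, chr8:84847055-84847113, minus strand, element reversed: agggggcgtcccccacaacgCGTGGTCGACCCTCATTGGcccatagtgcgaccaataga
Canx, chr11:50325780-50325838, minus strand: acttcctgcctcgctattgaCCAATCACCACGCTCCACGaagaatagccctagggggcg
Pdia6, chr12:17266471-17266529, plus strand: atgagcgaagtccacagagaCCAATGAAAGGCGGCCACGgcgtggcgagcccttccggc
Syvn1, chr19:6046512-6046570, plus strand: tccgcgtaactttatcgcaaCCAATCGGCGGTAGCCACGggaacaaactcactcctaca
Derl3, chr10:75893222-75893280, plus strand, element reversed: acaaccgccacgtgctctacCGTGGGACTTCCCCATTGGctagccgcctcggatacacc
Herpud1, chr8:94386357-94386407, plus strand, second element: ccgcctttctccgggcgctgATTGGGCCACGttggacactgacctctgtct

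The Sdf2l1 promoter is shown because Sdf2l1 had the largest difference in the list between CR and AS tumors. It held neither element exactly, and the capitals mark a match to the second element with 1 mismatch, on the reverse strand, which began 149 bases before the gene start.
Sdf2l1, chr16:17132384-17132633, minus strand: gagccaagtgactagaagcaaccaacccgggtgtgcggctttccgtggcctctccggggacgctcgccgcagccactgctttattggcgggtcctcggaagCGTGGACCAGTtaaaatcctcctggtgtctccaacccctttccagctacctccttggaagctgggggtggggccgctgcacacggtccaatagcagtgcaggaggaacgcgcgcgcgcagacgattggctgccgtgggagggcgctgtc

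Total counts ran from 20905806 in metastatic CR2 to 91886163 in metastatic AS2, and the CR tumors primary CR2 (24909389) and metastatic CR2 held the lowest totals. The 38 genes took 1.32% to 2.03% of all counts in the AS tumors and 0.942% to 1.56% in the CR tumors. The library names of the AS and CR tumors fall in separate number ranges, the meaning of which is not given. Of the epithelial markers, Krt8 was high (2159 to 42146 normalized counts), whereas Krt18, Epcam and Cdh1 stayed at or below 36 in every tumor. Summed plasma cell markers, of which 6 of 7 were found, read 3073 to 8763 in AS tumors and 2219 to 4188 in CR tumors. The largest part in every tumor was Sdc1, with 2055 to 4302 in AS and 2085 to 3924 in CR. Igj was highest in primary AS2 (2821) and metastatic AS1 (1183). On average 5 of the 6 were higher in AS, whereas Pou2af1 was higher in CR (20.2 against 15.9). Summed macrophage markers read 11940 to 15340 in AS and 5371 to 12090 in CR tumors, with 5 of 5 markers higher on average in AS, and their part in the differences by phenotype was not tested. In a whole tumor, fewer cells of a type and less RNA per cell cannot be told apart.

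Levels per length, computed for the 38 genes only, ran from abundant messages to traces. On the scale of normalized counts per kilobase of exon, Hsp90b1 stood first with a median of 35521, then Calr with 32659, Hspa5 with 25067, Pdia6 with 22291 and Canx with 21191. Xbp1 stood 13th with 4286, and the sensors Ern1 (451), Atf6 (448) and Eif2ak3 (257) lay far below the chaperones. Uggt2 (6.83) and Derl3 (1.92) were the lowest. The ranges over the 8 tumors of the first 5 genes overlapped, as the plot of levels per length shows. Of the 38 genes, 34 shared no stretch of a read's length, with up to 2 mismatches, with another annotated transcript. The largest shared part was 11.1% of the stretches of Dnajb9.

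**Figure D1:**
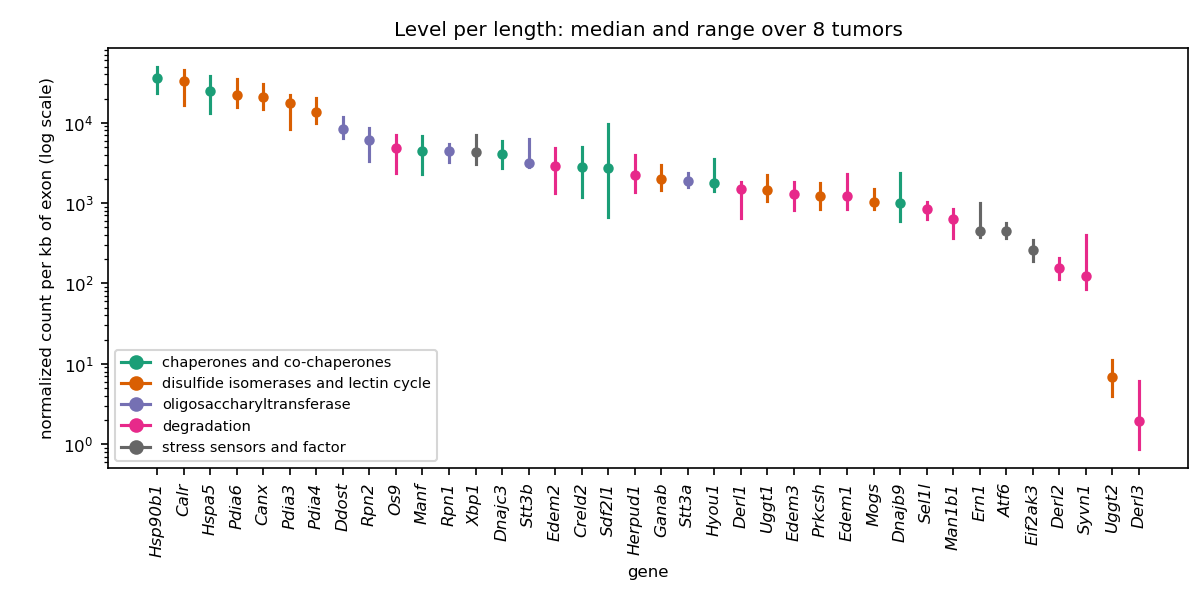
Level of each of the 38 ER genes per kilobase of exon (log scale), in order of the median over 8 tumors. Points are medians, lines run from the lowest to the highest tumor, and colors mark the role. Hsp90b1 leads with 35521 and Derl3 ends the order with 1.92.

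Phenotype was compared first, CR against AS with tumor type as a covariate, to ask whether the ER genes differ between the castrate resistant and the androgen sensitive tumors. In CR tumors 7 of the 38 genes were lower and 0 were higher at an adjusted p under 0.05 (edgeR quasi-likelihood test with Benjamini-Hochberg adjustment). The 7 were Sdf2l1, Herpud1, Prkcsh, Man1b1, Creld2, Edem3 and Stt3b. Among all 18889 genes tested, 5.29% were lower and 10.1% changed in either direction by the same rule. At an unadjusted threshold of 0.05, 18 of the 38 genes passed, each lower in CR, against 14.1% of all genes. The log2 difference was below 0 for 31 of the 38 genes, against 50% of all genes. The median was −0.502 over the list, −0.000397 over all genes and −0.00276 over the 1888 most abundant genes, which hold 28 of the 38. The 4 CR tumors lay below the 4 AS tumors, without overlap, for 8 of the 38 genes and for 9.04% of all genes. The 8 were Sdf2l1, Creld2, Prkcsh, Stt3b, Man1b1, Herpud1, Derl2 and Derl3. Derl3 held at most 16 raw counts a tumor and was tested only because its metastatic AS tumors passed the filter on low counts. Without it, 7 of 37 genes did not overlap, 17 passed the unadjusted threshold and 30 were below 0.

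The count of 7 depended on single tumors: it ran from 2 (without metastatic AS1, primary AS2, metastatic AS2 or metastatic CR1) to 12 (without primary CR1). Without primary AS2 and metastatic AS1, the tumors highest in plasma cell markers, 1 gene, Sdf2l1, was called and 32 of 37 stayed below 0. Without primary CR2 and metastatic CR2, the lowest totals, 4 genes were called. Calls over all genes moved as well, from 1899 to 69 and 701 without these pairs. Leaving out 1 tumor, calls over all genes ran from 399 to 3784.

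**Figure D2:**
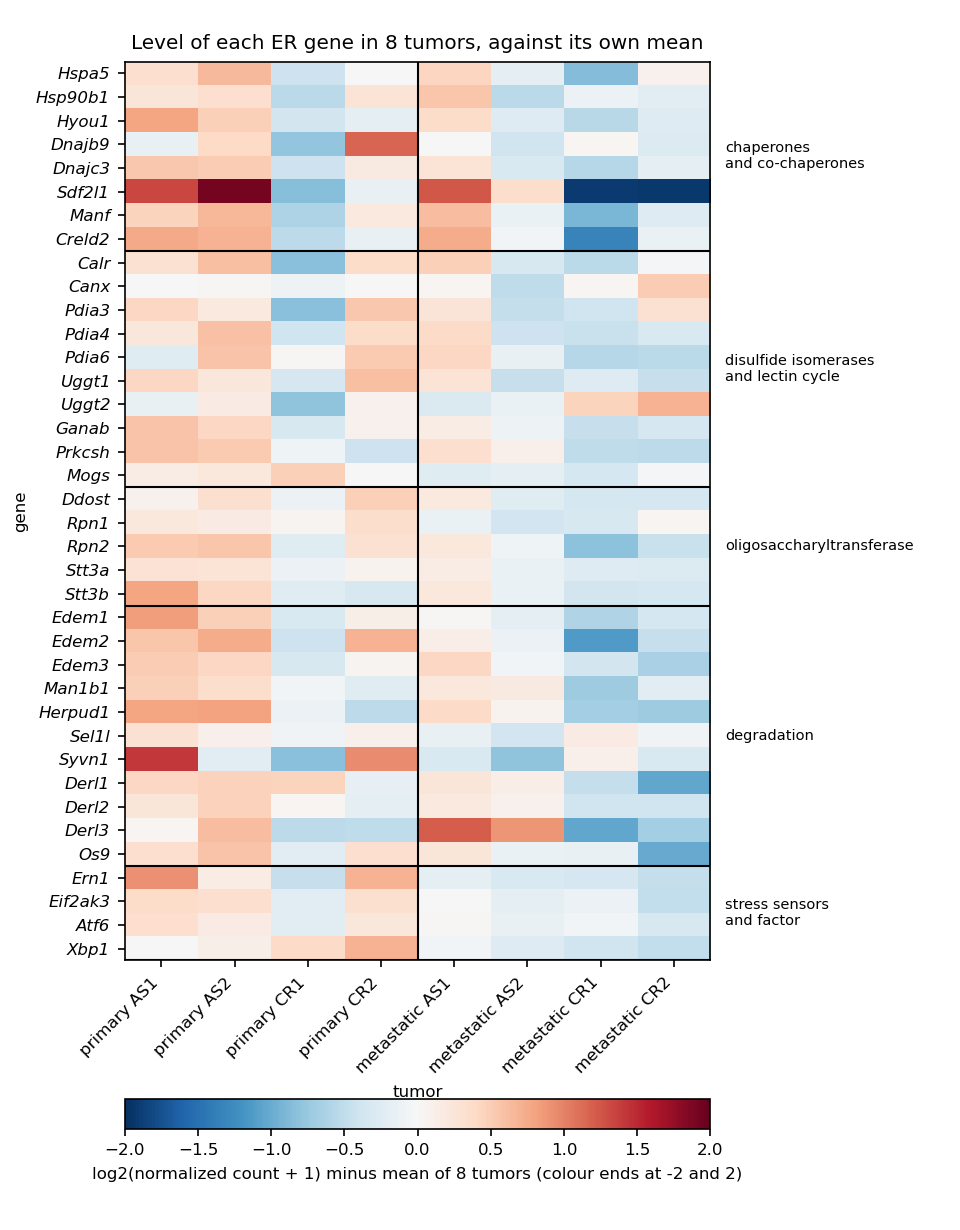
Level of each ER gene in each of the 8 tumors as log2(normalized count + 1) minus the mean of the gene over the tumors, with colors ending at −2 and 2. Horizontal lines separate roles and the vertical line separates primary from metastatic tumors. Sdf2l1 has the widest spread and is lowest in the 2 metastatic CR tumors.

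The chaperones and co-chaperones held 2 of the 7 called genes, with 7 of 8 below 0 and a median log2 difference of −0.67. Sdf2l1, a partner of the BiP co-chaperones on chr16:17130138-17132383, had normalized counts of 7101 and 10549 in primary AS1 and AS2, 6652 and 3587 in metastatic AS1 and AS2, 1556 and 2525 in primary CR1 and CR2, and 746 and 740 in metastatic CR1 and CR2. Values for other genes follow in the same order of tumors. Every CR tumor lay below every AS tumor, with means of 1392 ± 847 in CR and 6972 ± 2850 in AS (SD, n = 4). The difference was 5.57-fold (log2 −2.48, SE 0.284, adjusted p = 0.00351, edgeR). It was −2.13 among primary tumors (adjusted p = 0.085, edgeR) and −2.82 among metastatic tumors (adjusted p = 0.04, edgeR). Sdf2l1 passed the threshold in 16 of 17 alternatives, among them all 8 that left out 1 tumor.

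Creld2, a putative disulfide isomerase of the ER, read 6906, 6621, 6853 and 3961 in the AS tumors and 2859, 3689, 1631 and 3730 in the CR tumors. The lowest AS tumor, metastatic AS2, was close to the highest CR tumor, and CR was 2.09-fold lower (log2 −1.06, SE 0.271, adjusted p = 0.0403, edgeR). It passed in 8 of the 17 alternatives.

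The main chaperones did not pass the threshold. Hspa5, the central ER chaperone, read 129775, 162190, 139469 and 90161 in AS and 77748, 102586, 56447 and 109427 in CR (log2 −0.61, 95% interval −1.19 to −0.03, adjusted p = 0.163, edgeR). Metastatic AS2 lay below 2 of the CR tumors, so the groups overlapped. Hsp90b1, its partner of the Hsp90 family, read 161321, 171939, 198522 and 93843 in AS and 93877, 164266, 125122 and 116573 in CR (−0.35, adjusted p = 0.442, edgeR). The lowest AS tumor was again metastatic AS2, level with primary CR1.

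Hyou1, the exchange factor of BiP, read 25743, 20593, 19120 and 12366 in AS and 11495, 13169, 10101 and 12398 in CR (log2 −0.73, adjusted p = 0.0521, edgeR). Manf, a small secreted protein that binds BiP, read 20569, 24055, 23189 and 13814 in AS and 9919, 17378, 8021 and 12721 in CR (−0.80, adjusted p = 0.0764, edgeR). For both genes 1 AS tumor, metastatic AS2, fell among the CR tumors. Dnajb9, a repressor of Ire1, read 2394, 3486, 2662 and 2012 in AS and 1527, 5955, 2705 and 2191 in CR (0.17, adjusted p = 0.793, edgeR). Its highest and lowest tumors were both CR. Dnajc3, an inhibitor of Perk, had a log2 difference of −0.53 (adjusted p = 0.137, edgeR).

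The disulfide isomerases and the lectin cycle held 1 called gene of 10, with 7 below 0 and a median of −0.29. Prkcsh, the beta subunit of glucosidase II, read 7636, 7428, 6550 and 5542 in AS and 4872, 3874, 3652 and 3586 in CR, without overlap. It was 1.73-fold lower in CR (log2 −0.79, SE 0.149, adjusted p = 0.017, edgeR). Ganab, the catalytic alpha subunit of the same enzyme, had a difference of −0.54 (adjusted p = 0.0643, edgeR), whereas Mogs, glucosidase I, had 0.03.

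Calr, calreticulin, read 105550, 129779, 117947 and 67946 in AS and 47576, 109424, 58440 and 82565 in CR (log2 −0.52, adjusted p = 0.287, edgeR). Canx, calnexin, its membrane-bound relative, read 98268, 100506, 102097 and 69228 in AS and 92340, 98389, 101773 and 141125 in CR (0.19, 95% interval −0.29 to 0.68, adjusted p = 0.606, edgeR). The 2 lectins thus had differences of opposite sign, neither of which passed, and the groups overlapped for both. Pdia4, a disulfide isomerase, read 37992, 48786, 42718 and 24469 in AS and 24882, 42306, 23911 and 26455 in CR (−0.42, adjusted p = 0.289, edgeR). The isomerases Pdia6 and Pdia3 had −0.34 and −0.16, and the folding sensors Uggt1 and Uggt2 had −0.24 and 0.20, the latter with only 50.3 to 144 normalized counts a tumor.

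Of the 5 subunits of the oligosaccharyltransferase, 1 was called, 4 were below 0 and the median was −0.32. Stt3b, the catalytic subunit that also acts after translation, read 26306, 20447, 17701 and 13933 in AS and 12927, 12223, 11822 and 11926 in CR. The groups did not overlap, and the CR tumors lay close together. The difference was 1.60-fold (log2 −0.68, SE 0.18, adjusted p = 0.0457, edgeR), and it passed in 4 of the 17 alternatives. Stt3a, the catalytic subunit that acts during translation, read 21108, 20832, 19057 and 15677 in AS and 15827, 18178, 14346 and 14296 in CR (−0.32, adjusted p = 0.207, edgeR). Rpn2 had −0.62 (adjusted p = 0.0685, edgeR), Ddost −0.20 and Rpn1 0.04.

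The degradation genes held 3 of the 7 called genes, with 10 of 11 below 0 and a median of −0.62. The 10 include Derl3, which was present only as a trace. Herpud1, which assembles the export and ubiquitin machinery and sits on chr8:94386438-94395377, read 9092, 9190, 6870 and 5531 in AS and 4873, 3683, 3300 and 3244 in CR. The groups did not overlap, with means of 7671 ± 1784 and 3775 ± 758 (SD, n = 4). CR was 2.05-fold lower (log2 −1.03, SE 0.161, adjusted p = 0.00907, edgeR). Its promoter window above holds the exact second element. Herpud1 passed in 14 of 17 alternatives, among them all 8 that left out 1 tumor. It missed the threshold among primary tumors (−1.11, adjusted p = 0.114, edgeR), among metastatic tumors (−0.96, adjusted p = 0.0976, edgeR) and without the tumors highest in plasma cell markers (−0.99, adjusted p = 0.148, edgeR).

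Man1b1 and Edem3 trim mannose from glycoproteins bound for degradation. Man1b1 read 4481, 4121, 3749 and 3659 in AS and 3106, 2740, 1961 and 2769 in CR, without overlap (1.55-fold lower, log2 −0.63, SE 0.153, adjusted p = 0.0355, edgeR). Edem3 read 11822, 11010, 11086 and 7992 in AS and 6679, 8592, 6440 and 5278 in CR, and only metastatic AS2 fell below a CR tumor (1.59-fold lower, log2 −0.67, SE 0.175, adjusted p = 0.0438, edgeR). Man1b1 passed in 5 and Edem3 in 4 of the 17 alternatives. The related Edem1 and Edem2 had −0.60 (adjusted p = 0.0633, edgeR) and −0.62 (adjusted p = 0.16, edgeR).

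The 3 derlins, channel proteins of the export machinery, differed in level. Derl1 and Derl2 had log2 differences of −0.62 (adjusted p = 0.119, edgeR) and −0.51 (adjusted p = 0.0572, edgeR). Derl3 was a trace, with raw counts of 5, 9, 16 and 16 in AS and 4, 1, 1 and 1 in CR, and with a difference of −1.65 (adjusted p = 0.159, edgeR). At these counts a difference could not be placed, although the groups did not overlap after normalization. The ubiquitin ligase Syvn1 had −0.06 and its partner Sel1l 0.04, while the lectin Os9 had −0.49 (adjusted p = 0.21, edgeR).

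**Figure D3:**
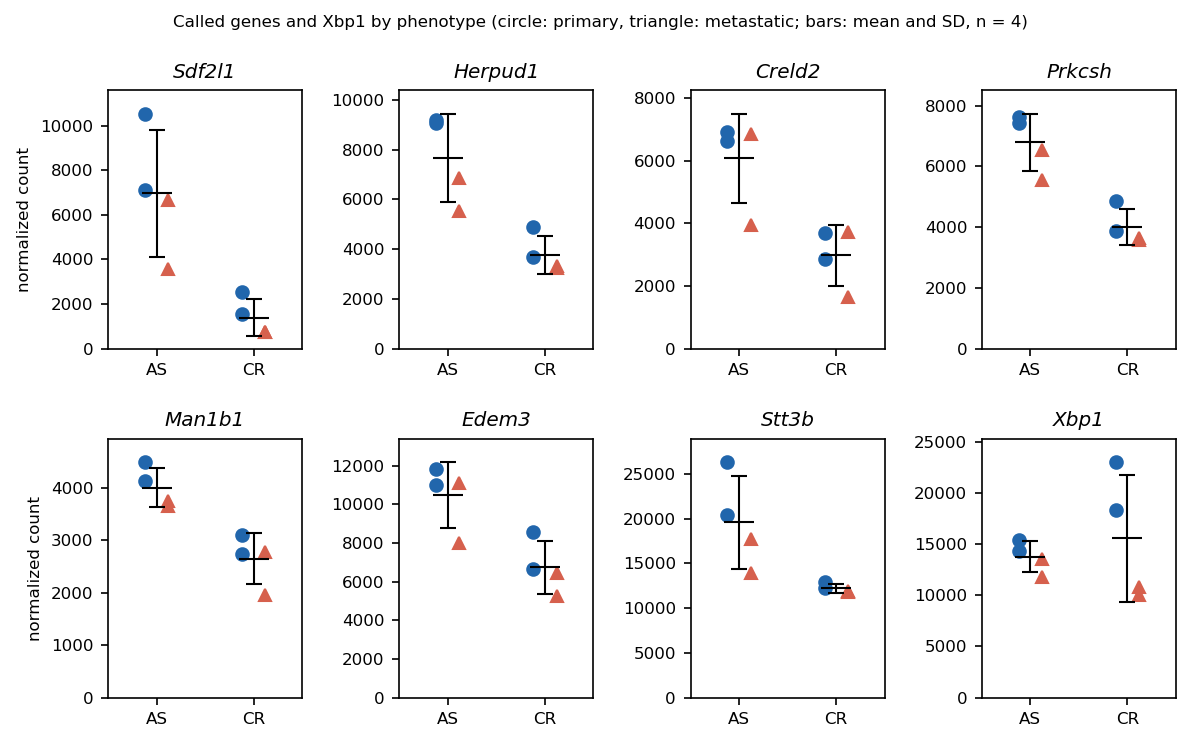
Normalized counts of the 7 genes called lower in CR tumors, and of Xbp1, in 4 AS and 4 CR tumors. Circles are primary and triangles metastatic tumors, and bars give the mean and SD. CR tumors lie below AS tumors for all of the 7 but Edem3, where metastatic AS2 (7992) lies below primary CR2 (8592), whereas for Xbp1 the highest tumor is CR.

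None of the 4 sensors and factors was called by phenotype. Xbp1, on chr11:5520659-5525893, read 14291, 15390, 13552 and 11771 in AS and 18346, 22952, 10760 and 10056 in CR. The AS tumors lay between the primary CR tumors, which were the highest, and the metastatic CR tumors, which were the lowest. The log2 difference was 0.07 with a 95% interval of −0.38 to 0.52 (adjusted p = 0.853, edgeR). Ern1 read 8207, 4807, 3825 and 3541 in AS and 3167, 7052, 3461 and 3122 in CR (−0.29, adjusted p = 0.516, edgeR). Eif2ak3 read 2079, 2027, 1605 and 1420 in AS and 1384, 2014, 1489 and 1140 in CR (−0.27, adjusted p = 0.343, edgeR). Atf6 read 5284, 4693, 4260 and 3793 in AS and 3590, 4883, 4013 and 3360 in CR (−0.21, adjusted p = 0.425, edgeR). For Ern1, Eif2ak3 and Atf6 primary CR2 lay within the range of the AS tumors.

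Within primary tumors alone, 0 of the 38 genes were called by phenotype in edgeR, against 0.296% of all genes, and 9 were lower at an unadjusted 0.05, against 6.82% of all genes. Within metastatic tumors, 1 was called, Sdf2l1, against 0.36% of all genes, and 10 were lower at an unadjusted 0.05, against 11.5% of all genes. The 38 include Derl3, which passed the filter only through its metastatic AS tumors, the higher side of the metastatic contrast. The median log2 difference was −0.41 in primary and −0.45 in metastatic tumors.

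By promoter, the 10 genes with an exact element had a median phenotype difference of −0.53, with 9 below 0 and 2 called. The trace gene Derl3 is among the 9. The 24 without an element had a median of −0.37, with 18 below 0 and 5 called. No test was made of this split.

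Tumor type was compared next, metastatic against primary. This is the question of the study, but the paper's text names fewer primary tumors than the 4 compared here, without saying which was left out. Derl3 did not pass the filter on low counts, and 37 of the 38 genes were tested. None was called by edgeR at an adjusted p under 0.05, as for all 17104 genes (0%, with 459 at an unadjusted 0.05), and DESeq2 called 0 as well. At an unadjusted 0.05, 5 of the 37 passed, each lower in metastases, against 1.12% of all genes, and 6 passed by DESeq2. This count was 12 with phenotype as a covariate, and leaving out 1 tumor it ran from 1 (without metastatic CR1) to 13 (without primary CR1). Over all genes, 1146 of 17104 passed in either direction with the covariate, and 611 passed by DESeq2. Without metastatic CR1 523 of 17691 passed, and without primary CR1 944 of 17393. The log2 difference was below 0 for 35 of the 37, against 53.8% of all genes, with Canx (0.09) and Uggt2 (0.36) the exceptions. The median was −0.39 over the list, −0.03 over all genes and −0.07 over the 1710 most abundant genes, which hold 25 of the 38. Metastatic tumors lay below primary tumors without overlap for 3 of the 37, Mogs, Rpn1 and Xbp1, and for 0.848% of all genes.

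**Figure D4:**
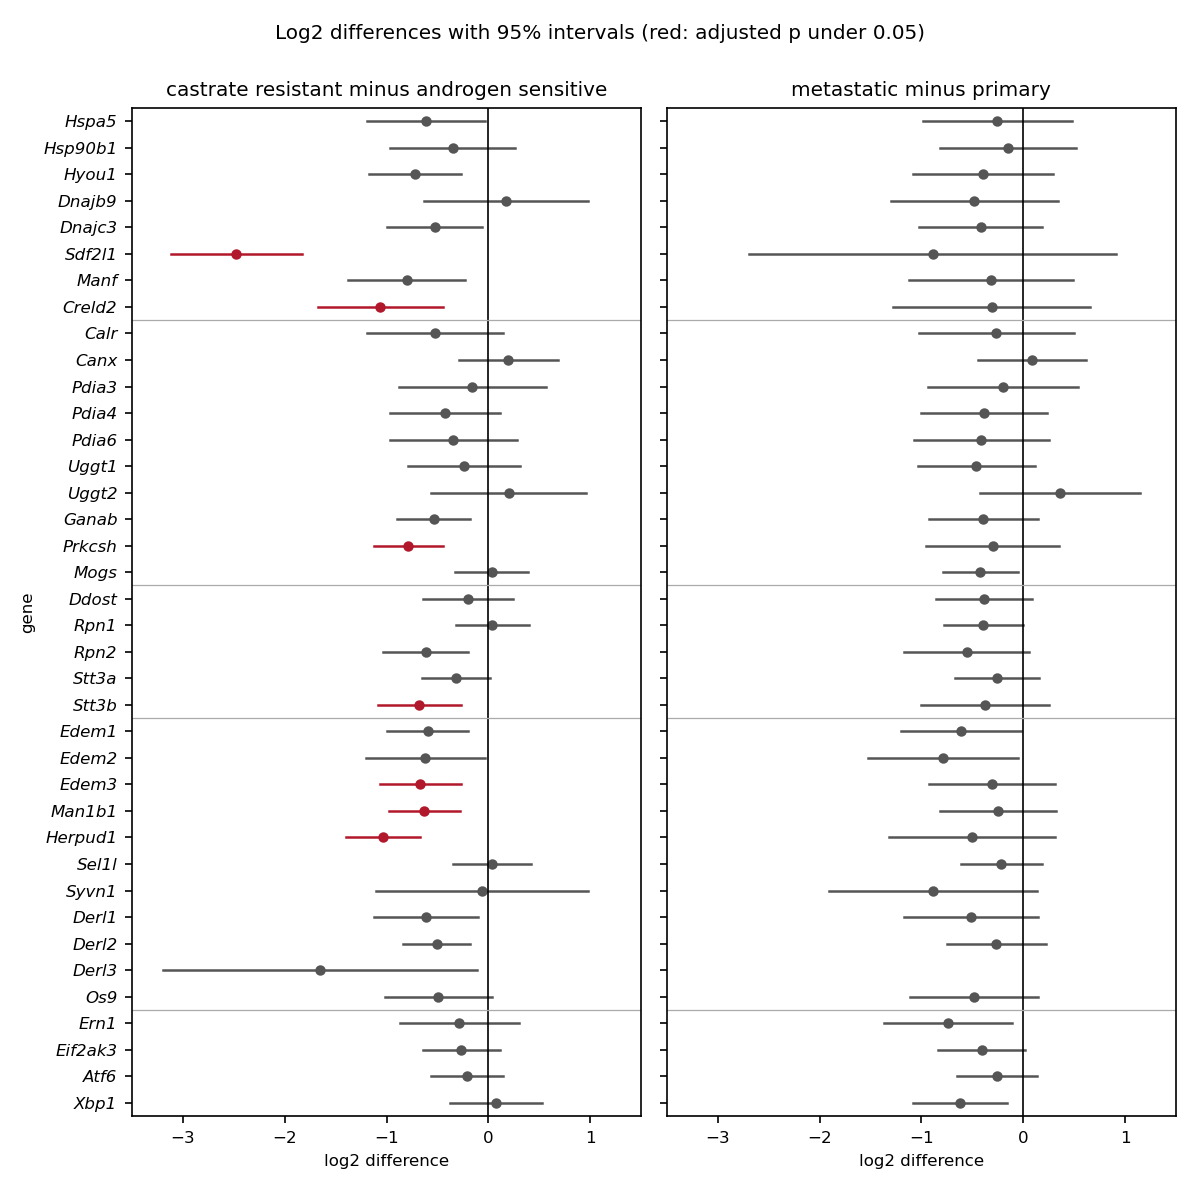
Log2 differences of the ER genes, CR minus AS on the left and metastatic minus primary on the right, with 95% intervals. Red marks an adjusted p under 0.05, reached by 7 genes on the left and by 0 on the right. Derl3 was not tested on the right.

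The 5 genes with the smallest p by tumor type were a sensor, a transcription factor and 3 enzymes of sugar trimming. Xbp1 read 14291 and 15390 in primary AS, 18346 and 22952 in primary CR, 13552 and 11771 in metastatic AS and 10760 and 10056 in metastatic CR tumors. Every metastatic tumor lay below every primary tumor, with means of 11530 ± 1518 and 17740 ± 3871 (SD, n = 4). The log2 difference was −0.62 (95% interval −1.08 to −0.16, adjusted p = 0.997, edgeR). Ern1, whose protein splices the Xbp1 message, had −0.74 (−1.36 to −0.11, adjusted p = 0.997, edgeR). Its highest values were primary AS1 (8207) and primary CR2 (7052), the other 6 tumors ran from 3122 to 4807, and the groups overlapped through primary CR1 (3167).

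Mogs, which removes the first glucose from the new sugar tree, read 3383, 3530, 4279 and 3048 in the primary tumors, AS first, and 2590, 2669, 2408 and 2968 in the metastases. The groups did not overlap, and the log2 difference was −0.42 (−0.79 to −0.05, adjusted p = 0.997, edgeR). Edem2, which starts mannose trimming, read 14723, 16704, 7485 and 16159 in primary and 10915, 9183, 4554 and 7262 in metastatic tumors (−0.79, −1.52 to −0.05, adjusted p = 0.997, edgeR). Edem1 read 14833, 11528, 6709 and 9004 in primary and 8384, 7245, 5437 and 6477 in metastatic tumors (−0.61, −1.20 to −0.02, adjusted p = 0.997, edgeR). For both Edem genes primary CR1 fell among the metastases.

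By role, the tumor type medians were −0.36 for chaperones, −0.35 for isomerases and the lectin cycle, −0.39 for the oligosaccharyltransferase, −0.49 for degradation and −0.51 for the sensors and Xbp1. Hspa5 and Hsp90b1 had −0.26 (95% interval −0.99 to 0.48) and −0.15 (−0.81 to 0.52). Sdf2l1, with −0.89, had the widest interval (−2.69 to 0.91). Endothelial markers summed to 2838 to 4626 in metastases and 2056 to 3251 in primary tumors, and their part in these values was not tested.

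The difference by tumor type was then set against phenotype. Within AS tumors 37 of the 38 genes had a log2 difference below 0, with a median of −0.36, and within CR tumors 35 of 38, with a median of −0.40. The trace gene Derl3 is among the 38. None of the 38 was called by edgeR within AS tumors (0% of all genes) or within CR tumors (0% of all genes). DESeq2 called 0 of the 37 it tested in both, against 11 of 15593 genes within AS and 14 of 17424 within CR. At an unadjusted 0.05, 2 of the 38 were lower within AS, against 0.895% of all genes, and 6 within CR, against 5.37%. These counts are from contrasts in the fit of all tumors. In edgeR fits of the tumors of each phenotype alone, the order was reversed. In either direction, 12 of 38 then passed in AS (1272 of 17466 genes) and 3 of 37 in CR (395 of 15961 genes). Which phenotype held more of the listed genes at this threshold thus depended on the fit. The interaction of tumor type and phenotype was called for 0 of the 38 genes and 0% of all genes by edgeR. By DESeq2 it was called for 0 of the 38 and 2 of all genes. At an unadjusted 0.05, 1 of the 38 passed with a value below 0 by edgeR, against 1.54% of all genes, and 0 by DESeq2. The gene was Xbp1, with −0.23 within AS, −1.01 within CR and an interaction of −0.78 (95% interval −1.53 to −0.03, adjusted p = 0.964, edgeR).

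Across the 8 tumors the genes of the list varied together. The median Pearson correlation of log2(normalized count + 1) over pairs of the 37 tested genes was 0.61, with 90.2% of pairs above 0, and over pairs of the 1710 most abundant genes it was 0.03, with 51.9% above 0. These are descriptions over 8 tumors that share group, library and depth. Stt3a (median correlation with the others 0.83), Ganab (0.81) and Sdf2l1 (0.78) followed the list most closely. Uggt2 (−0.18), Canx (−0.08), Mogs (0.22), Sel1l (0.35) and Xbp1 (0.35) followed it least.

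Other genes of the same pathways were taken from a fixed list of 67, of which 65 were found. By tumor type 0 of the 65 were called, 59 were below 0 and the median was −0.27. By phenotype 5 were lower (7.69%, against 5.29% of all genes) and 2 higher in CR tumors (10.8% in either direction, against 10.1%), so these shares lay near those of all genes. The log2 difference was below 0 for 49, and the median was −0.29. Ufd1l, part of the complex that pulls proteins out of the ER together with Vcp, read 3806, 3019, 2585 and 2483 in AS and 1257, 1082, 1084 and 1041 in CR (2.68-fold lower, log2 −1.42, SE 0.151, adjusted p = 0.00248, edgeR). Wfs1, an ER membrane protein, had −0.93 (adjusted p = 0.0186, edgeR). The BiP co-chaperone Dnajb11 had −0.73 (adjusted p = 0.027, edgeR), Dolk, the dolichol kinase, −0.71 (adjusted p = 0.0441, edgeR), and Magt1, an accessory subunit of the Stt3b complex, −0.67 (adjusted p = 0.0301, edgeR). Higher in CR were Alg5, which makes the glucose donor of the sugar tree (0.90, adjusted p = 0.0203, edgeR), and Mbtps2, a protease that cleaves Atf6 (0.65, adjusted p = 0.037, edgeR). Genes downstream of Perk, chosen here after their values were seen, were not called, with 0.11 for Atf4, −0.52 for Ddit3 and 1.89 for Trib3 (adjusted p = 0.0824, edgeR). Trib3 read 98.4, 77.0, 57.1 and 89.5 in AS and 607, 47.0, 208 and 340 in CR. Its highest and lowest tumors were both CR. Ppp1r15a, also among the 65, was not called and had means of 590 in AS and 632 in CR.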

How the data were processed

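RNA-seq counts of 4 primary and 4 metastatic Myc-CaP tumors were analysed. Before library preparation the authors removed ribosomal RNA. They prepared stranded libraries and sequenced paired reads of 101 bases. The deposited values are raw read counts per gene, which the authors made from reads that matched 1 location with up to 2 mismatches. The methods name Bowtie and mm10, and the submitters' processing notes name CASAVA 1.8.2, TopHat2 2.0 and GRCm38. The counting tool, annotation and strand setting are not given in the sources used here, and 13 of the 38 genes are overlapped by a gene on the opposite strand.

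Counts were tested in R 4.3.3 with edgeR 4.0.16 (filterByExpr, TMM factors, quasi-likelihood test, Benjamini-Hochberg adjustment over all genes tested, threshold 0.05). Tumor type was fitted alone, and phenotype with tumor type as a covariate. The other contrasts came from a fit with 1 mean per group. To give a normalized count, each count was divided by its tumor's total times the TMM factor, then multiplied by the mean of those products. Alternatives were DESeq2 1.42.0, RLE factors, genes with at least 1 count, an adjusted p under 0.10, other covariates, 1 phenotype alone and leaving out tumors. The edgeR steps were tested on simulated counts. Gene positions and lengths are from GENCODE M21 (mm10) and promoters from RefSeq. Python 3.11.15 with matplotlib 3.10.9 drew the plots.

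The genes and lists were chosen with earlier results of these data known. Values in every tumor are given for a set of genes named by rule, for every gene of the 38 called and for the 5 with the smallest p by tumor type and by phenotype. Hyou1, Derl1, Manf and Atf6 were not in the promoter table. Some epithelial markers are not reported here. Of the marker lists, the summed normalized counts of the normal male secretory gland ran over the tumors from 2.16 to 460.9, of B cells from 8.68 to 19.9, of T cells from 2.88 to 44.7, of fibroblasts from 3112 to 6320, of hepatocytes from 217 to 1528 and of lung epithelium from 0 to 9.93.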

Additional observations from a re-analysis of the deposited data

Results flagged for a closer look

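In 152 sets of 4 tumors, 1 for each ER gene in primary, metastatic, AS and CR tumors, 10 held a tumor that stood apart by Dixon's test at its 95% critical value. Chance gives about 1 in 20 sets, and tumors are shared between sets. Values are normalized counts, and the cause was not tested for any of them.

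Primary CR1 was the low tumor among primary tumors for Hsp90b1 (93880, others 161300 to 171900) and for Eif2ak3 (1384, others 2014 to 2079). Primary CR2 was the low tumor among primary tumors for Derl1 (3930, others 5924 to 6080). Among CR tumors primary CR2 was the high tumor for Pdia4 (42310, others 23910 to 26460), Uggt1 (28600, others 13730 to 15760) and Ern1 (7052, others 3122 to 3461). It also had 1 of the lowest totals, 24909389 counts.

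Metastatic AS2 was the low tumor among AS tumors for Creld2 (3961, others 6621 to 6906) and for Canx (69230, others 98270 to 102100). Metastatic AS1 was the high tumor among metastases for Pdia4 (42720, others 23910 to 26460). Primary AS1 was the high tumor among AS tumors for Syvn1 (1943, others 416 to 622).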

How the results depend on the processing

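No paired analysis was possible because the labels call the metastases matched without saying to which primary tumor, and they give no replicate numbers. By tumor type 0 ER genes were called under every alternative run. By phenotype, where 7 were called, every called gene was lower in CR under every alternative. The count was 13 with DESeq2, 14 with genes of at least 1 count, 13 at an adjusted p under 0.10, 5 with RLE factors and 4 without the covariate. Leaving out 1 tumor gave 2 to 12. It was 0 among primary tumors and 1 among metastases, and, in alternatives chosen after seeing the data, 1 without the tumors highest in plasma cell markers and 4 without those of lowest total. Over all genes, 1899 were called, 3520 with DESeq2, 3098 with at least 1 count and 3301 at 0.10. RLE factors gave 2003 and the fit without the covariate 1714. There were 69 and 701 without those pairs of tumors, and 399 to 3784 leaving out 1 tumor. With genes of at least 1 count, tumor type gave 1 call within AS (Syvn1) and 1 within CR (Sdf2l1). Over all 31875 genes that setting gave 179 calls within AS and 375 within CR. The causes were not tested.

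No called gene changed sign. Log2 differences that did are given next. By tumor type, leaving out 1 tumor moved Canx from −0.0975 to 0.238. Canx was −0.091 without the lowest totals. In fits of the tumors of 1 phenotype alone, Canx was −0.196 and Uggt2 −0.211 in AS, and Pdia3 0.0341 and Sel1l 0.0586 in CR. By phenotype, with genes of at least 1 count, Mogs was −0.0353, Rpn1 −0.0363, Sel1l −0.0336 and Xbp1 −0.00143. Leaving out 1 tumor gave Mogs −0.134 to 0.121, Syvn1 −0.329 to 0.412, Xbp1 −0.0768 to 0.176, Rpn1 −0.0437 to 0.0602, Sel1l −0.109 to 0.0885, Pdia3 −0.425 to 0.0383 and Dnajb9 −0.344 to 0.386. Without the tumors highest in plasma cell markers Mogs was −0.00796 and Sel1l −0.00951, and without the lowest totals Dnajb9 was −0.341, Uggt2 −0.0462 and Rpn1 −0.113. Among primary tumors Canx was −0.0742, Pdia6 0.0599, Uggt2 −0.373, Rpn1 −0.00049 and Sel1l −0.201, and among metastases Pdia3 was 0.0175, Mogs −0.00835, Syvn1 0.416 and Xbp1 −0.32.

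With 2 tumors per group, 1 line per phenotype and totals that differ widely, small differences could not be placed, and Derl3 and Uggt2 were too low to compare.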
